A study of Mus musculus with 9 samples.

Results

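Transcripts of 9 genes of the renin-angiotensin and endothelin systems were followed in RNA-seq libraries of the mouse heart: Agt, Ace, Agtr1a, Agtr2, Edn1, Edn3, Ece1, Ednra and Ednrb. They were picked by symbol, and each matched 1 of the 53465 gene IDs in the count files. The libraries came from NOD-SCID mice, an immunodeficient strain, and the tissue taken was, by the labels, the border zone of the infarct, sham hearts included. Each of 3 groups has 3 libraries: sham operation, coronary artery ligation, and ligation followed by implantation of cells called FOXO3-GE-MPCs. For 2 libraries of the cell group, replicates 2 and 3, one label gives a different FOXO number, and their titles and treatment, which give FOXO3, were followed. The labels used here give no age, sex, time after surgery or number of implanted cells, and no group had implanted cells of another kind, so an effect of the FOXO3 edit and an effect of implanted cells in general cannot be told apart. Nothing in the labels says that the 3 libraries of a group came from separate animals, so p-values measure the spread between these libraries, which may be technical. Sham replicates 1 and 2, and ligation replicates 2 and 3, share a name stem in the file headers, and no pair of replicates agreed within counting noise.

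Angiotensinogen, encoded by Agt, is cut by renin to angiotensin I, which angiotensin-converting enzyme (Ace) shortens to angiotensin II, a constrictor of vessels that also acts on fibroblasts and cardiomyocytes. Angiotensin II signals mainly through the Gq-coupled receptor encoded by Agtr1a, while the receptor encoded by Agtr2 is abundant in fetal tissue and is known to oppose some of those actions. The endothelins are short vasoactive peptides made as precursors, here from Edn1 and Edn3, and cut to their active form by membrane proteases such as endothelin-converting enzyme (Ece1). Ednra, on smooth muscle and cardiomyocytes, mediates constriction and growth, and Ednrb, prominent on endothelium, mediates relaxation and clearance of the peptide. Both systems are drug targets in cardiovascular disease, the first of them after myocardial infarction.

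The genes lie apart in the mouse genome, so no pair of members shares a locus. In GENCODE on GRCm38 (mm10) Agt spans chr8:124556534-124569706, Ednra chr8:77663031-77724464, Ace chr11:105967945-105989964, Agtr1a chr13:30336441-30382867 and Edn1 chr13:42301476-42307990. Edn3 spans chr2:174760619-174784042, Ece1 chr4:137862237-137965229, Ednrb chr14:103814625-103844402 and Agtr2 chrX:21484544-21489164. RefSeq promoter windows on GRCm38.p6 were matched for 8 of the 9 members, 12 windows in all. In the 250 bases before each start 4 motifs were searched on both strands: TGANTCA for AP-1, GATAA for GATA factors, ACGTG for the core of a hypoxia response element, and TATAAA for the box of that name. These occur in 6.75%, 22.6%, 16.6% and 12.4% of the 32851 RefSeq windows of that length. Of the 5 members whose level passed the test between the cell group and sham, 4 have a window, and these are shown 5′ to 3′ on the gene's own strand, with motif matches in capitals.
Ace, chr11:105967698-105967947, plus strand: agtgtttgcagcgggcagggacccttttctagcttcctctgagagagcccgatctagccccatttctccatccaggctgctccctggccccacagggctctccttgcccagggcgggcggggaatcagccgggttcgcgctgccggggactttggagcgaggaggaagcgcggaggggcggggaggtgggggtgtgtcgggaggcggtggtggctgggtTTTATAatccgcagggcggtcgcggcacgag
Agt, chr8:124569707-124569956, minus strand: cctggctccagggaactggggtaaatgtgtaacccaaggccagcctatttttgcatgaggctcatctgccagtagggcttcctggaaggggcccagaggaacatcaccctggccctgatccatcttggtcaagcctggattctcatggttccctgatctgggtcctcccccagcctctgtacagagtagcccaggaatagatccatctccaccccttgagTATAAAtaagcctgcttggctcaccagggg
Edn3, chr2:174760369-174760618, plus strand: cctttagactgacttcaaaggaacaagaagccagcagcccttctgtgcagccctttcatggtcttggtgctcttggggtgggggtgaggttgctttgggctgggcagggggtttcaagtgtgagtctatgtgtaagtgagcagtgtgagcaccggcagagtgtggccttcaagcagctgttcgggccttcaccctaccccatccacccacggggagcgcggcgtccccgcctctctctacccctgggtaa
Ece1, chr4:137861987-137862236, plus strand: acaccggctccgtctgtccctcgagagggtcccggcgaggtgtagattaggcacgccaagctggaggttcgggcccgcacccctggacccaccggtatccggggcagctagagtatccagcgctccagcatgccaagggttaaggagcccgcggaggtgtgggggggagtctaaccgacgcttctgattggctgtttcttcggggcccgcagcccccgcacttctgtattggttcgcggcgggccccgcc
The capitals in Agt are TATAAA, 30 to 25 bases before the start, and those in Ace are the same motif read on the opposite strand, 31 to 26 bases before it. Neither the Edn3 window nor the Ece1 window shown held any of the 4 motifs. Among the other windows 1 of Ece1, at a start inside the gene, held ACGTG on both strands as 1 palindrome, so that 3 of 12 windows had a match. The windows of Edn1, Ednra, Ednrb and Agtr2 and the second window of Ace had none. A match is a run of letters and not a measured binding site.

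Libraries held 4549268 to 7515052 gene counts, and 3 counts, taken as the smallest detectable amount, equalled 0.375 to 0.639 CPM (counts per 1000000 counts of the library, its total scaled with TMM factors). Mitochondrially encoded genes took 19.09% to 19.89% of gene counts in sham, 12.55% to 13.92% in ligation and 14.28% to 14.34% with cells. After a filter on low counts 13825 genes were tested, among them 8 of the 9 members, and Agtr2 was not. Past an adjusted p of 0.05 in edgeR's quasi-likelihood test were 38.2% of tested genes for ligation against sham, 9.87% for cells against ligation and 40.9% for cells against sham. Of these calls 52.7%, 42.4% and 51.2% were higher in the first group named, against 78.7%, 32.0% and 73.1% with library totals as the only scaling, which shifts the median gene by 0.19, -0.03 and 0.16 on the log2 scale. Changes are therefore stated relative to the median gene, as TMM sets it. The labelled tissue was checked on 7 cardiomyocyte markers (Myh6, Tnnt2, Tnni3, Actc1, Ryr2, Pln and Mb), and all were detected in every group. They summed to 49999 to 52303 CPM in sham, 41752 to 43482 in ligation and 41607 to 42390 with cells, with 1 higher and 5 lower after ligation. The 7 endothelial markers summed to 2045 to 2158 CPM in sham, 1352 to 1426 in ligation and 1473 to 1514 with cells, and all 7 fell after ligation. The 7 fibroblast markers summed to 2208 to 2274, 3853 to 3960 and 3658 to 3739 CPM, with 5 higher and 1 lower after ligation, and the 7 macrophage markers to 390 to 420, 585 to 605 and 238 to 242 CPM. Markers of activated fibroblasts summed to 109 to 119, 712 to 728 and 613 to 663 CPM, and those of epicardium to 31 to 42.9, 194 to 238 and 162 to 170 CPM. The 6 atrial markers summed to 519 to 607, 932 to 1698 and 1714 to 2303 CPM. Within that list Nppa, which stressed ventricle also expresses, rose after ligation from 107 to 895 CPM, while Myl7, Sln and Myl4 fell, and with cells these 3 were above both other groups (Myl7 at 157, 98.8 and 299 CPM in sham, ligation and cells). Of the skeletal muscle markers Acta1, also expressed in heart, rose in both steps, and the mean of Myh4 was 0 CPM in sham and with cells. Whether the same region of the heart was taken in every group was not tested. In bulk tissue fewer cells of a type and less RNA per cell cannot be told apart.

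Among the members the converting enzymes had the highest levels per length. In sham hearts Ece1 was at 39.4 ± 0.685 CPM per kilobase of exonic length (SD, n = 3), Ace at 20.9 ± 1.5, Ednrb at 11.05 ± 0.453 and Ednra at 10.8 ± 0.663. Agtr1a followed at 9.52 ± 1.67, Edn1 at 5.28 ± 0.271, Agt at 4.26 ± 0.109 and Edn3 at 2.20 ± 0.358 CPM per kilobase. The neighbours Ednrb, Ednra and Agtr1a did not differ beyond their spread in sham, and the other neighbours did. In ligation Ace, at 39.5 ± 3.66 CPM per kilobase, stood above Ece1, at 31.2 ± 1.70, and Agt, at 2.98 ± 0.532, was level with Edn3, at 2.93 ± 0.161. With cells Ace (33.3 ± 0.726) and Ece1 (32.6 ± 0.127 CPM per kilobase) lay within their spread of each other, and Edn3 (3.83 ± 0.357) lay above Agt (2.80 ± 0.419).

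**Figure D1:**
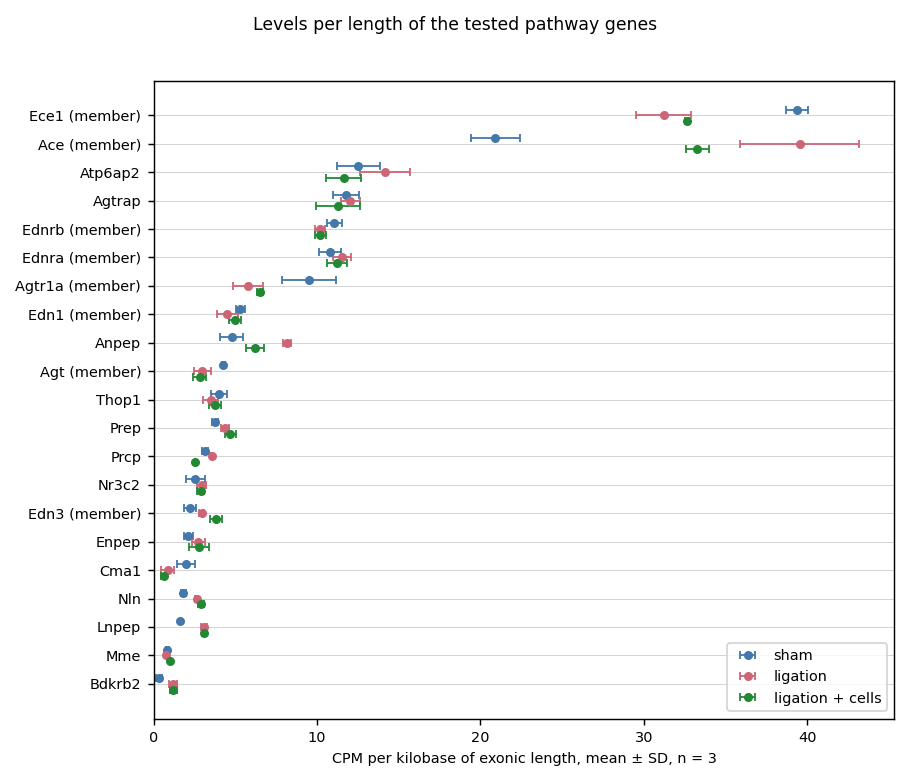
Levels of the 8 tested members and 13 other tested genes of both systems on the x axis, in CPM per kilobase of exonic length, as mean ± SD of 3 libraries per group. Ece1 and Ace stand to the right of all others, and Ace is at 39.5 in ligation and 33.3 in the cell group, against 20.9 in sham.

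Ace had the largest fold change of the 8 tested members between ligation and sham. Its 3 sham libraries were at 116, 114 and 101 CPM, its ligation libraries at 187, 218 and 222 CPM and its cell libraries at 173, 180.3 and 175 CPM. Every library of ligated hearts, with or without cells, was thus above every sham library, and the cell libraries lay below the ligation libraries. Ace rose 1.90-fold after ligation (0.92 on the log2 scale, SE 0.0684; edgeR quasi-likelihood test, adjusted p 9.77e-10). It fell with cells against ligation (log2 fold change -0.25, SE 0.0660, adjusted p 0.0167, same test), and stayed 1.59-fold above sham (0.67, SE 0.0685, adjusted p 1.07e-07). The call between cells and ligation was lost without ligation replicate 2 (adjusted p 0.0922), ligation replicate 3 (0.107), cell replicate 1 (0.0677) or cell replicate 3 (0.0578), with log2 fold changes between -0.20 and -0.33 over all 9 such fits. It was also lost when libraries with a shared name stem in the file headers were summed (-0.22, adjusted p 0.0695), a step chosen after seeing the data. Beside the rise of Ace after ligation stand the fall of the 7 endothelial markers and the higher fibroblast and macrophage sums. Beside its fall with cells stands the fall of all 7 macrophage markers. The fibroblast, activated fibroblast, epicardial and endocardial sums were also lower with cells, and the endothelial, atrial, skeletal muscle and Schwann cell sums higher. Each of these sums was without overlap between ligation and cells, but not every marker followed its sum. Passing were 1 of 7 fibroblast markers and 1 of 5 activated fibroblast markers, both lower. Of 4 tested skeletal muscle markers 1 was higher and 1 lower. In the endocardial list Plvap fell from 94.3 to 68.4 CPM, while Npr3, which did not pass, went from 39.2 to 43.3 CPM. The part of these markers in the changes of Ace was not tested. The antisense gene Gm11651 shares 295 exonic bases with Ace and was at 0 counts in all 9 libraries.

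The substrate, Agt, was scarce. It was at 7.83, 8.24 and 8.10 CPM in sham, at 6.39, 4.49 and 6.0 CPM in ligation and at 4.96, 4.72 and 6.19 CPM with cells. All 6 libraries of ligated hearts were below all 3 sham libraries, and the groups with and without cells overlapped. The log2 difference from sham was -0.53 in ligation (95% interval -0.97 to -0.08, edgeR adjusted p 0.0560), which did not pass, and -0.61 with cells (SE 0.211, adjusted p 0.0266), which did. The first passed with limma-voom (adjusted p 0.0433) and with mitochondrially encoded genes removed (adjusted p 0.0490), and the second was lost with library totals alone (-0.45, adjusted p 0.0925), with DESeq2 (adjusted p 0.114), and without sham replicate 2 or 3 or cell replicate 1 or 2 (adjusted p 0.0596 to 0.0859). Ren1, which encodes renin, had at most 2 counts in any library, under the detectable 3.

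Agtr1a fell after ligation. Its levels were 28.3, 21.3 and 30.0 CPM in sham, 13.2, 18.1 and 17.0 CPM in ligation and 18.0, 17.6 and 18.6 CPM with cells. The lowest sham library was above all 6 libraries of ligated hearts, and the cell libraries sat close together, replicates 1 and 2 inside the ligation range and replicate 3 above it. The log2 fold change was -0.70 in ligation (SE 0.139, adjusted p 0.000439, edgeR) and -0.55 with cells (SE 0.136, adjusted p 0.00259), both against sham. Between cells and ligation it was 0.15 (95% interval -0.15 to 0.44, edgeR adjusted p 0.611). Of its 31-base words 3.65% also occur in transcripts of other genes, Agtr1b among them, and Agtr1b, the second rodent gene for this receptor, had 1 count in 1 library. Agtr2 also had 1 count in 1 library, ligation replicate 1, and 0 in the other 8, so no fold can be given. Markers of mural cells, which carry the receptor, summed to 1756 to 1809 CPM in sham and 1241 to 1272 in ligation. With cells the sum was 1247 to 1276 CPM, and 5 of the 6 tested markers fell after ligation. The mural marker Rgs5 alone went from 882 to 599 CPM after ligation. The fibroblast sum went the other way, from 2208 to 2274 CPM in sham to 3853 to 3960 in ligation. The part of these markers in the fall of Agtr1a was not tested. The marker Tagln, high in smooth muscle, was at 1.41 ± 0.499 CPM in sham and was not tested. Of its 1988 exonic bases 1241 overlap the opposite-strand gene Gm48529, and the strand setting is not given. Whether reads of Tagln were lost as ambiguous was not tested, so its low value is not read as a low level.

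**Figure D2:**
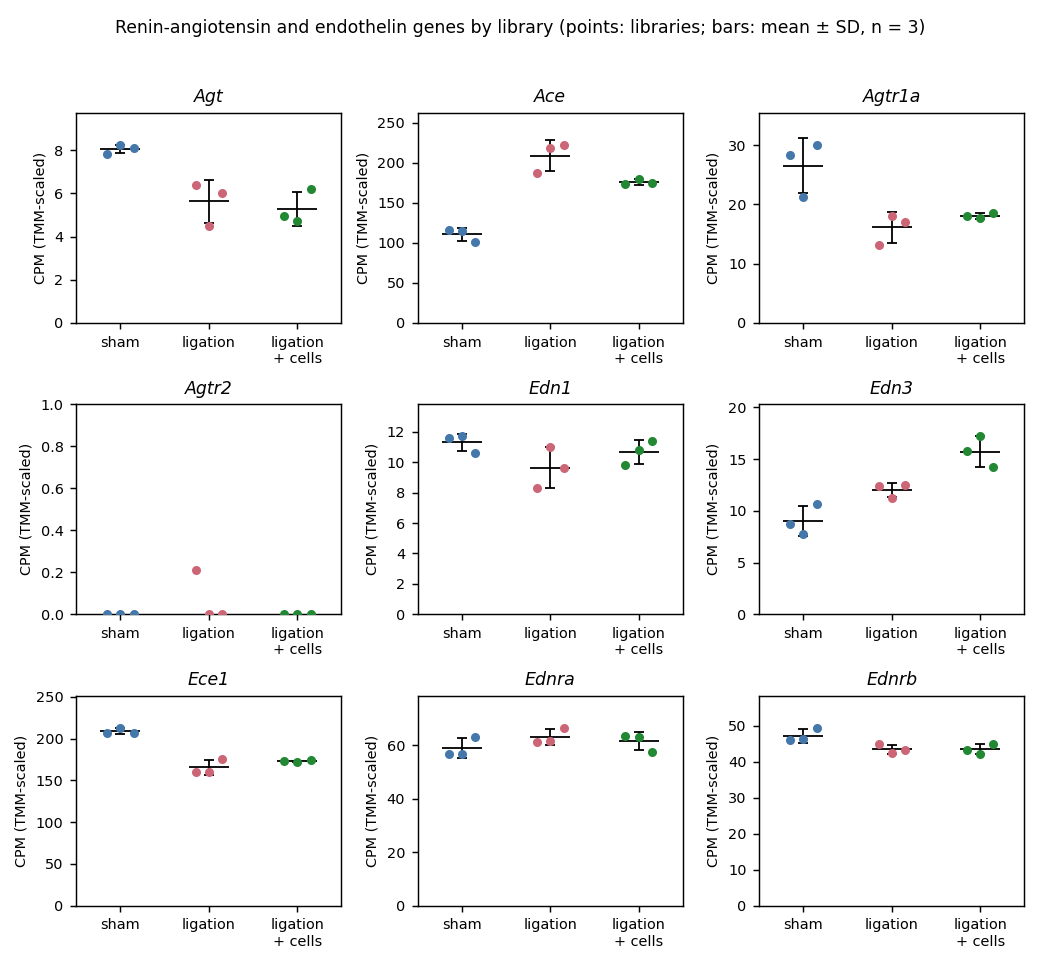
Level of each member in CPM on the y axis, 1 point per library, with the mean ± SD of 3 libraries drawn for all but Agtr2. Ace in ligation and with cells lies above every sham library, Agtr1a and Ece1 lie below, Edn3 steps up from sham to ligation to cells, and no comparison passed for Edn1, Ednra or Ednrb.

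Of the endothelin peptides Edn3 separated the groups and Edn1 did not. Edn3 was at 8.72, 7.74 and 10.6 CPM in sham, at 12.4, 11.3 and 12.5 CPM in ligation and at 15.7, 17.2 and 14.3 CPM with cells. The 3 groups did not overlap: sham was lowest and the cell group highest. Against sham Edn3 rose 1.74-fold with cells (0.80 on the log2 scale, SE 0.154; edgeR, adjusted p 0.000295). The separate steps did not pass, at 0.41 for ligation against sham (95% interval 0.07 to 0.75, adjusted p 0.0509) and 0.39 for cells against ligation (0.08 to 0.69, adjusted p 0.105). Beside the rise of Edn3 stand the atrial markers, 6 of 6 of which were higher with cells than in sham. In ligation 3 of these were higher and 3 lower than in sham. The epicardial (5 of 5), fibroblast (5 of 7) and activated fibroblast (4 of 5) markers were also higher with cells than in sham. The endothelial markers, 7 of 7, were lower. The Schwann cell sum was 16.5 to 20.5 CPM in sham, 21.1 to 24.5 in ligation and 52.0 to 60.7 with cells. The part of these markers in the level of Edn3 was not tested. The step from sham to ligation lies at the threshold and passed with library totals alone (0.60, adjusted p 0.00450), with a filter at a mean of 1 CPM (adjusted p 0.0499), without sham replicate 3 (0.55, adjusted p 0.0222) and without cell replicate 2 (adjusted p 0.0483).

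Edn1, which encodes the most studied of the endothelins and is made largely by endothelium, was at 11.6, 11.7 and 10.6 CPM in sham, at 8.31, 11 and 9.63 CPM in ligation and at 9.79, 10.8 and 11.4 CPM with cells. All 3 groups overlapped. The log2 difference was -0.21 for ligation against sham (95% interval -0.55 to 0.12, edgeR adjusted p 0.322) and 0.13 for cells against ligation (-0.20 to 0.46, adjusted p 0.691). For cells against sham it was -0.08 (-0.41 to 0.24), and it turned to 0.08 with library totals alone. Edn1 had 39 to 79 counts per library, and the first interval reaches a fall by 0.55 on the log2 scale. Edn2, the third endothelin gene, had at most 1 count in any library.

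Ece1, whose protease cuts the endothelin precursors, fell after ligation. It was at 207, 213 and 206 CPM in sham, 160.2, 160.3 and 176 CPM in ligation and 173, 172 and 174 CPM with cells. All 6 libraries of ligated hearts were below all 3 sham libraries, and the 3 cell libraries lay inside the ligation range. The log2 fold change against sham was -0.33 in ligation (SE 0.0535, adjusted p 4.42e-05, edgeR) and -0.27 with cells (SE 0.0531, adjusted p 0.000349). With library totals alone these were -0.14 (adjusted p 0.0414) and -0.11 (adjusted p 0.110), so the size of this fall rests on the scaling. Between cells and ligation the difference was 0.06 (95% interval -0.05 to 0.17, edgeR adjusted p 0.548). Beside the fall of Ece1 stand lower sums of the endothelial, cardiomyocyte, mural and mast cell markers in both ligated groups. The endothelial sum was higher with cells (1473 to 1514 CPM) than in ligation (1352 to 1426 CPM). The part of these markers in the fall of Ece1 was not tested.

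For the endothelin receptors no difference passed the test in any comparison. Ednra was at 57.0, 56.8 and 63.2 CPM in sham, 61.2, 61.8 and 66.6 CPM in ligation and 63.7, 63.3 and 57.6 CPM with cells, with all groups overlapping. Ednrb was at 45.9, 46.1 and 49.4 CPM in sham, 44.8, 42.3 and 43.1 CPM in ligation and 43.3, 42.2 and 44.9 CPM with cells, so that every sham library was above every library of ligated hearts by a small margin. For ligation against sham the log2 difference of Ednra was 0.10 (95% interval -0.05 to 0.25, edgeR adjusted p 0.296), and that of Ednrb was -0.12 (-0.28 to 0.03, adjusted p 0.214). For cells against ligation they were -0.04 (-0.19 to 0.11) and 0.01 (-0.15 to 0.16). With library totals alone Ednra did pass against sham, at 0.29 in ligation (adjusted p 0.00326) and 0.22 with cells (adjusted p 0.0211), and Ednrb turned to 0.07 and 0.04. The overlapping opposite-strand gene 4933431K23Rik, which shares 91 exonic bases with Ednra, had 9 to 35 counts per library, and the strand setting is not given in the sources used here.

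After ligation the share of members that passed was close to that of all genes. It was 3 of 8 tested (37.5%, against 38.2% of all tested genes). Ace was the 1 higher member (20.1% of genes were higher), Agtr1a and Ece1 were the 2 lower ones (18.0% were lower), and the median log2 difference of the 8 was -0.17, against 0.01 over all genes. In 6 of the 8 the groups did not overlap, as in 47.6% of genes. Between cells and ligation 1 of 8 passed (12.5%, against 9.87%), which was Ace, lower. Of all genes 5.69% were lower and 4.19% higher there, the median member difference was 0.03, and the groups did not overlap for 2 members, Ace and Edn3, as for 27.2% of genes. Between cells and sham 5 of 8 passed (62.5%, against 40.9%), Ace and Edn3 higher (21.0% of genes were) and Agt, Agtr1a and Ece1 lower (20.0% were), with a median of -0.10. The groups did not overlap for 6 members, as for 49.8% of genes. The 3 comparisons share their libraries in pairs and are not independent of each other.

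**Figure D3:**
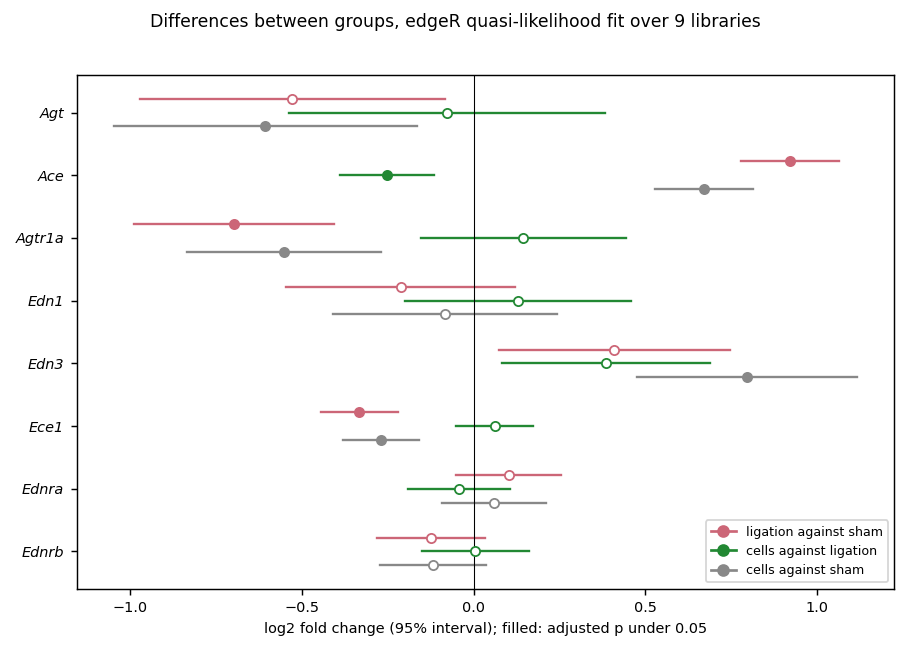
Log2 fold change of each tested member on the x axis, with its 95% interval, in the 3 comparisons, filled where the adjusted p was under 0.05. Only Ace is filled for cells against ligation, at -0.25, and the intervals of Edn1, Ednra and Ednrb include 0 in all 3 comparisons.

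Ratios between members within a library do not depend on the scaling between libraries, and 3 were compared in 9 tests. The log2 ratio of Ednra to Ednrb counts was 0.31, 0.30 and 0.36 in sham, 0.45, 0.55 and 0.63 in ligation and 0.56, 0.58 and 0.36 with cells. Every library of ligated hearts thus had more Ednra relative to Ednrb than every sham library, by 0.22 in ligation and 0.18 with cells on average, and cell replicate 3 lay just above the sham range. The log2 ratio of Edn1 to Edn3 was 0.40, 0.59 and 0.00 in sham, -0.57, -0.04 and -0.37 in ligation and -0.68, -0.67 and -0.32 with cells. Edn1 counts were at or above Edn3 counts in all sham libraries and below them in all libraries of ligated hearts. For both ratios the exact two-sided permutation test gave p = 0.1 for each ligated group against sham, the smallest that 3 against 3 libraries allow, and 0.225 after adjustment over the 9 tests. Between cells and ligation the exact p was 0.7 for the receptors and 0.3 for the peptides. The ratio of Agtr1a to Agtr2 rests on a count of 0 in 8 of 9 libraries and is not read here (exact permutation p from 0.2 to 0.7).

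**Figure D4:**
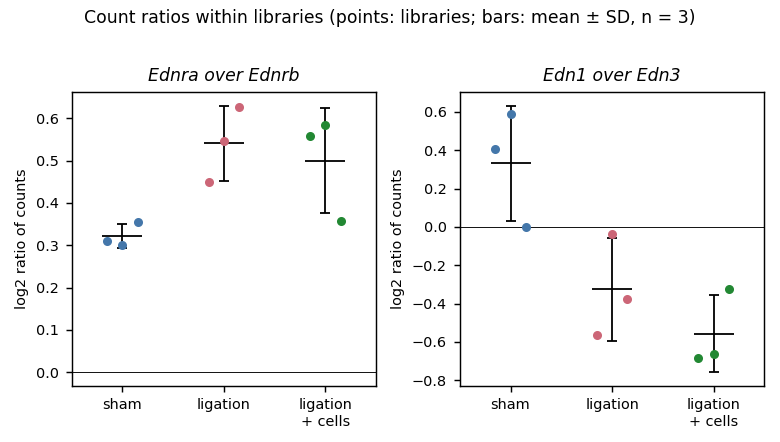
Log2 ratio of counts within each library on the y axis, 1 point per library, with mean ± SD of 3 libraries per group. Sham libraries do not overlap the 6 libraries of ligated hearts, lying below them for Ednra over Ednrb and above them for Edn1 over Edn3. The margins are narrow: sham replicate 3 is at 0.355 and cell replicate 3 at 0.358 for the receptors. For the peptides sham replicate 3 is at 0.00 and ligation replicate 2 at -0.04.

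The other renin-angiotensin genes listed were 22, of which 14 were tested. After ligation 5 rose and 1 fell (42.9% called, against 38.2% of all genes), with a median log2 difference of 0.19. Between cells and ligation 2 fell and 0 rose (14.3%, against 9.87%), and between cells and sham 5 were higher and 2 lower (50%, against 40.9%). The risers after ligation were mostly peptidases. Lnpep, an aminopeptidase that also binds the angiotensin fragment called angiotensin IV, went from 22.6 ± 0.309 to 43.6 ± 2.41 CPM (SD, n = 3; 1.93-fold, edgeR adjusted p 2.76e-08) and was at 43.1 ± 1.74 CPM with cells. Anpep, another aminopeptidase of the angiotensin peptides, went from 19.7 ± 2.90 to 33.8 ± 1.07 CPM (adjusted p 1.17e-05). With cells it fell to 25.6 ± 2.33 CPM (log2 fold change -0.40, edgeR adjusted p 0.0188), a call lost with DESeq2 (adjusted p 0.0928) and without ligation replicate 2 or 3 or cell replicate 2 (adjusted p 0.0526 to 0.0966). Nln, an endopeptidase, went from 15.3 ± 1.24 to 22.2 ± 0.590 CPM (adjusted p 0.000950) and was at 24.6 ± 1.59 CPM with cells. Prep, which cuts small peptides after proline, went from 40.8 ± 1.84 to 47.6 ± 2.87 CPM (adjusted p 0.0335), a call lost in 6 of 19 alternative fits. Bdkrb2, a bradykinin receptor listed because Ace also degrades bradykinin, rose from 1.26 ± 0.698 to 4.38 ± 0.972 CPM after ligation (3.45-fold, edgeR adjusted p 0.000672).

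Prcp, a carboxypeptidase that acts on angiotensin II, was lower with cells. It was at 17.2 ± 0.979 CPM in sham, 19.5 ± 0.477 in ligation and 13.9 ± 0.130 with cells, a log2 fold change of -0.49 between cells and ligation (SE 0.118, edgeR adjusted p 0.00956, with DESeq2 0.0808). Its level with cells was also below sham (-0.31, edgeR adjusted p 0.0474), a call lost in 14 of 19 alternative fits. The macrophage markers, 7 of 7, fell between ligation and cells as Prcp and Anpep did, and their part in these falls was not tested. Cma1, the mast cell chymase that can make angiotensin II without Ace, was at 2.14 ± 0.618, 0.916 ± 0.428 and 0.661 ± 0.165 CPM, which is 3 to 16 counts per library. Its fall after ligation (log2 fold change -1.19, edgeR adjusted p 0.0456) was lost in 13 of 19 alternative fits, and its level with cells was also below sham (-1.65, adjusted p 0.00858; with DESeq2 0.0531, without sham replicate 1 0.0528). Of the other mast cell markers Tpsb2 also fell after ligation (log2 fold change -1.37, edgeR adjusted p 0.0162), while Mcpt4 and Kit did not pass. Whether fewer mast cells or less Cma1 per cell lie behind these values cannot be told apart. Atp6ap2, Agtrap, Enpep, Thop1 and Nr3c2 did not pass in any of the 3 comparisons, and neither did Mme, a peptidase that degrades endothelins, which is on both lists and is the single tested gene of the 6 in the other endothelin list (edgeR adjusted p 0.745, 0.156 and 0.147; its unadjusted p was under 0.05 between cells and ligation alone, and DESeq2 called 0 of the 6).

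**Figure D5:**
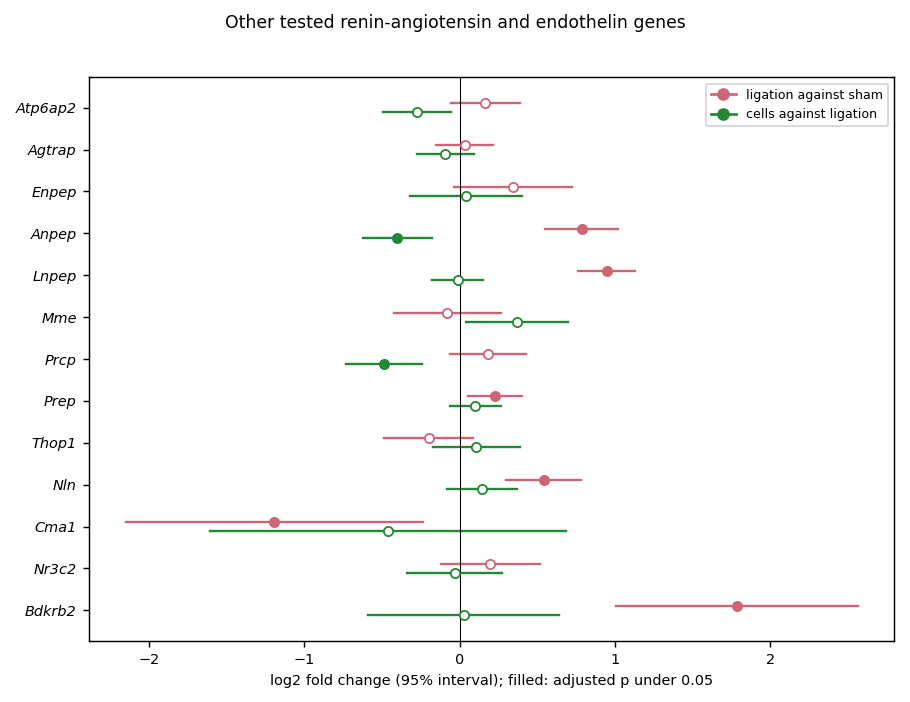
Log2 fold change of 13 other tested genes of both systems on the x axis, with 95% intervals, for ligation against sham and cells against ligation, filled where the adjusted p was under 0.05. Lnpep, Anpep, Nln, Prep and Bdkrb2 are filled to the right and Cma1 to the left for ligation, and Anpep and Prcp to the left for cells.

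Both receptor families signal through Gq and related G proteins, and a list of 37 symbols of that coupling held 35 tested genes. After ligation 10 rose and 3 fell (37.1%, against 38.2% of all genes). Rcan1, a calcineurin inhibitor that calcineurin signalling itself induces, went from 102 to 230 CPM (log2 fold change 1.17, SE 0.0528, edgeR adjusted p 4.30e-13), and Grk5, a receptor kinase that desensitises G protein-coupled receptors, from 34.6 to 73.0 CPM (1.07, SE 0.0743, adjusted p 3.89e-10). Between cells and ligation 1 rose and 7 fell (22.9%, against 9.87%). Only 5 of the 35 passed with DESeq2 or without ligation replicate 2, ligation replicate 3 or cell replicate 2. The gene that rose was Rcan1, to 284 CPM with cells (log2 fold change 0.31, SE 0.0497, edgeR adjusted p 0.000254). The falls with the largest size were Arrb2 and Arrb1, arrestins that bind activated receptors, at -0.79 (edgeR adjusted p 0.000857) and -0.45 (adjusted p 0.000284), and Nfatc2, a transcription factor that calcineurin activates, at -0.49 (adjusted p 0.0445), the last a call lost in 6 of 19 alternative fits. Arrb2 and Nfatc2 are also expressed in leukocytes, and the macrophage markers fell in the same comparison. Their part in these falls was not tested.

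The genes closest in pattern to each member were found by Pearson correlation of log2 CPM over the 9 libraries among 13787 genes, as a description in which group differences and shared libraries enter. Ace was followed most closely by Plxnb2, a plexin receptor (r = 0.99), whose means were 106, 186 and 169 CPM in sham, ligation and cells, and by Ryr2, the calcium release channel of cardiomyocytes (r = 0.99). Closest to Ece1 were Hint3 and Kdm6b (r = 0.99 each), and closest to Agtr1a were Mrpl20 (r = 0.98) and Zfp445 (r = 0.97). For Edn3 these were Enc1 and Rbm24 (r = 0.97 each), with Enc1 at 18.9 CPM in sham, 23.1 in ligation and 28.9 with cells. Edn1 was matched by Commd9 (r = 0.98) and Gsto2 (r = 0.95), Agt by Impdh2 and Mccc2 (r = 0.97 each), and Ednrb by Setdb1 and Urb1 (r = 0.96 each). Ednra had the loosest neighbours, Ccdc57 and Secisbp2l (r = 0.90 each).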

How the data were processed

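Per the labels' protocols, TRIzol was used for RNA isolation and a NEBNext Ultra kit for library preparation. Each library has 1 deposited table of unnormalized counts by gene ID. The submitters' processing notes name build mm10; the aligner, counter, strand setting and annotation release are not given in the sources used here. Rows that name no gene (reads outside genes, 4.14% to 4.91% of all reads, and ambiguous reads, 8.09% to 8.72%) were left out. Symbols were matched for 53274 of 53465 IDs (GENCODE vM21, GRCm38).

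In R 4.3.3 genes were kept with filterByExpr, scaled with TMM and fitted with edgeR 4.0.16 (glmQLFit, glmQLFTest; 1 mean per group over 9 libraries, 6 residual degrees of freedom; two-sided; Benjamini-Hochberg over 13825 genes; threshold 0.05). SE is the fold change over the root of F. Length is the union of a gene's exons. Ratios used a prior count of 0.5. On simulated data the fit called 81% of 200 genes changed by 1 (with 13 false calls) and 49% of 200 changed by 0.5 on the log2 scale (with 11 false calls) among 13825 genes, and 0 genes when none changed, for ligation against sham. The simulation changed far fewer genes than the 38.2% that passed in the real comparison, and it held no shift in scaling. These rates therefore need not hold for the real data. DESeq2 1.42.0, limma-voom (limma 3.58.1) and other settings were alternatives. The floor of 3 counts covers counting error only.

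Named were the 9 members, Ren1, Agtr1b and Edn2 whatever their values, other listed renin-angiotensin or endothelin genes past the threshold, the 3 largest changes of the Gq list after ligation and between cells and ligation, and the 2 nearest patterns per member; some results that this rule covers are not reported here. Other genes named to describe a list or a marker fall outside this rule and were chosen after their values were seen. Members and lists were chosen with earlier results of these data known. Figures were drawn with matplotlib 3.10.9.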

Additional observations from a re-analysis of the deposited data

How the results depend on the processing

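Over 19 alternative settings each, the 24 fold changes of the tested members gave 456 values, of which 426 kept direction and side of the threshold, 12 lost the call, 8 gained it and 10 changed sign. Ace, Agtr1a and Ece1 in ligation against sham, and Ace, Agtr1a and Edn3 in cells against sham, passed in all 19. With library totals alone 5 members, 10 other renin-angiotensin genes and 22 Gq genes passed in ligation against sham (3, 6 and 13 with TMM), and 1 other endothelin gene in cells against sham (0 with TMM); Ednrb became 0.0650, -0.0247 and 0.0403 in the 3 comparisons and Edn1 0.0755 in cells against sham. With DESeq2 0 other renin-angiotensin genes and 5 Gq genes passed in cells against ligation (2 and 8 in edgeR); of the former 3 had an unadjusted p under 0.05, against 4 in edgeR. With libraries of 1 header stem summed, a setting chosen after seeing the data, 0 members passed there (1 before; 2 at an unadjusted p under 0.05 in both fits), and Ednrb was -0.000812. Fewer libraries enter those fits; for the others the cause was not tested. Without 1 library each, counts in cells against ligation ran from 0 to 1 member, 1 to 2 other renin-angiotensin genes and 5 to 8 Gq genes, and fold changes there from -0.224 to 0.000297 (Agt), -0.0673 to 0.00195 (Ednra) and -0.0210 to 0.0265 (Ednrb). The ratios there ran from -0.0874 to 0.0293 (Ednra over Ednrb) and -0.0303 to 1.33 (Agtr1a over Agtr2).

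With the replicate number as a block, 3, 1 and 5 members passed, as without it, and 5134, 1230 and 5511 genes (5277, 1365 and 5661 without). The numbers come from the titles; deviations of same-numbered libraries correlated between -0.0555 and 0.0593, and 3 of 9 libraries correlated best with their own number. Among named genes the block ended the calls of Cma1 in ligation against sham and of Prcp in cells against sham. Agtr2, Ren1, Agtr1b and Edn2 are limited by depth.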

Other observations

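The kinin and aldosterone genes that border the renin-angiotensin system were also read, since angiotensin-converting enzyme degrades bradykinin as well. Bdkrb2, the constitutive bradykinin receptor, was at 0.890, 0.824 and 2.06 CPM in sham, 3.41, 5.35 and 4.38 CPM in ligation and 3.55, 5.27 and 4.75 CPM with cells. All 6 libraries of ligated hearts were above all 3 sham libraries, at 5 to 13 counts in sham and 16 to 38 in the others. The log2 fold change against sham was 1.79 in ligation (SE 0.373, adjusted p 0.000672, edgeR quasi-likelihood test) and 1.81 with cells (SE 0.368, adjusted p 0.000492), and both passed in all 19 alternative fits. Bdkrb1, the inducible bradykinin receptor, had at most 3 counts in any library, and Kng1, which encodes the kinin precursor, had 0 counts in all 9. Cyp11b2, the aldosterone synthase gene, also had 0 counts in all 9, and Hsd11b2, which protects the mineralocorticoid receptor from glucocorticoids, had at most 4. The receptor itself, Nr3c2, was at 16.5 ± 3.91 CPM in sham (SD, n = 3), 19.0 ± 1.76 in ligation and 18.5 ± 1.49 with cells and did not pass (edgeR adjusted p 0.334, 0.930 and 0.403).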
